A study of Homo sapiens with 4 samples.

Results

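The tetraspanins are small membrane proteins that cross the membrane 4 times and gather integrins, proteases and immunoglobulin-type proteins into membrane domains. CD9, CD63 and CD81 are also common components of secreted vesicles. The TM4SF, or L6, proteins have a similar topology and form a family of their own, named after the tumour antigen L6, which is TM4SF1. Genes of both families were selected by symbol: TSPAN or TM4SF followed by a number, CD9, CD37, CD53, CD63, CD81, CD82, CD151, UPK1A and UPK1B. The selection gave 37 of the 60675 genes in the tables, among them 6 of the L6 family.

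RNA was sequenced from MM134, a lobular breast carcinoma line that expresses the estrogen receptor. A HER2 WT line was compared with a HER2 L755S line, which carries a substitution in the kinase domain of the receptor tyrosine kinase encoded by ERBB2. Both lines had been kept for 7 days in phenol red-free medium with 5% charcoal-stripped serum, so that all groups were deprived of estrogen and none was grown with it. Each line had 2 libraries, numbered 1 and 2, and paired values below are given for library 1 first. The sources used here do not say whether a line is 1 clone or how its HER2 was introduced. Nor do the labels name separate cultures for the libraries, so a p-value here reflects library-to-library spread alone, possibly technical.

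The total expected count, RSEM's estimate of reads per gene, was 27423247 to 31088422 per library. Mitochondrial transcripts took 4.03% to 4.40% of it in the number 1 libraries and 8.83% to 13.5% in the number 2 libraries. Of 10 luminal breast epithelium markers, all 10 were tested and none was called, and KRT19, XBP1 and KRT8 led them. Their log2 fold changes, HER2 L755S over HER2 WT, were positive for 4 and negative for 6. ESR1, the estrogen receptor gene, had 5708 and 8183 counts under HER2 WT versus 1892 and 3141 counts under HER2 L755S. It was thus lower without overlap (log2 -1.29, edgeR, adjusted p = 0.15). Of 10 leukocyte markers, 4 had no count in any library and none was tested, and their summed level was 0.38 to 1.53 TPM (a level per transcript length, with the same total in every library). Of 8 endothelium markers, 2 were at 0 throughout, PECAM1 and CDH5, and EGFL7 made up most of their summed 18.2 to 52.9 TPM. Of 8 fibroblast markers, COL1A1 made up most of a summed 14.9 to 37.6 TPM. The 5 basal epithelium markers summed to 0.19 to 0.53 TPM and the 5 urothelium markers to 3.37 to 9.74 TPM, with UPK3A and KRT20 at 0 throughout. No marker in these lists was called.

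CD63 and TM4SF1 were the most abundant members. CD63, a protein of late endosomes and secreted vesicles, stood at 793 and 630 TPM in HER2 WT 1 and 2 and at 1163 and 995 TPM in HER2 L755S 1 and 2. TM4SF1 stood at 279 and 272 TPM in the HER2 WT libraries and at 1144 and 1061 TPM in the HER2 L755S libraries. By TPM it was the member ranked 4 and 3 in HER2 WT 1 and 2, and ranked 2 and 1 in HER2 L755S 1 and 2. CD81, a vesicle and immune co-receptor protein, ranged from 216 to 508 TPM over the 4 libraries. CD151, which binds laminin-binding integrins, ranged from 190 to 403 TPM. TSPAN15, CD9, TSPAN13 and TSPAN3 followed, with means over the 4 libraries of 94.6, 87.1, 84.4 and 72.7 TPM. In all, 14 members had a mean above 10 TPM and 15 a mean under 1 TPM, of which TSPAN2, TSPAN8, TSPAN16 and TSPAN19 had no count in any library.

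**Figure D1:**
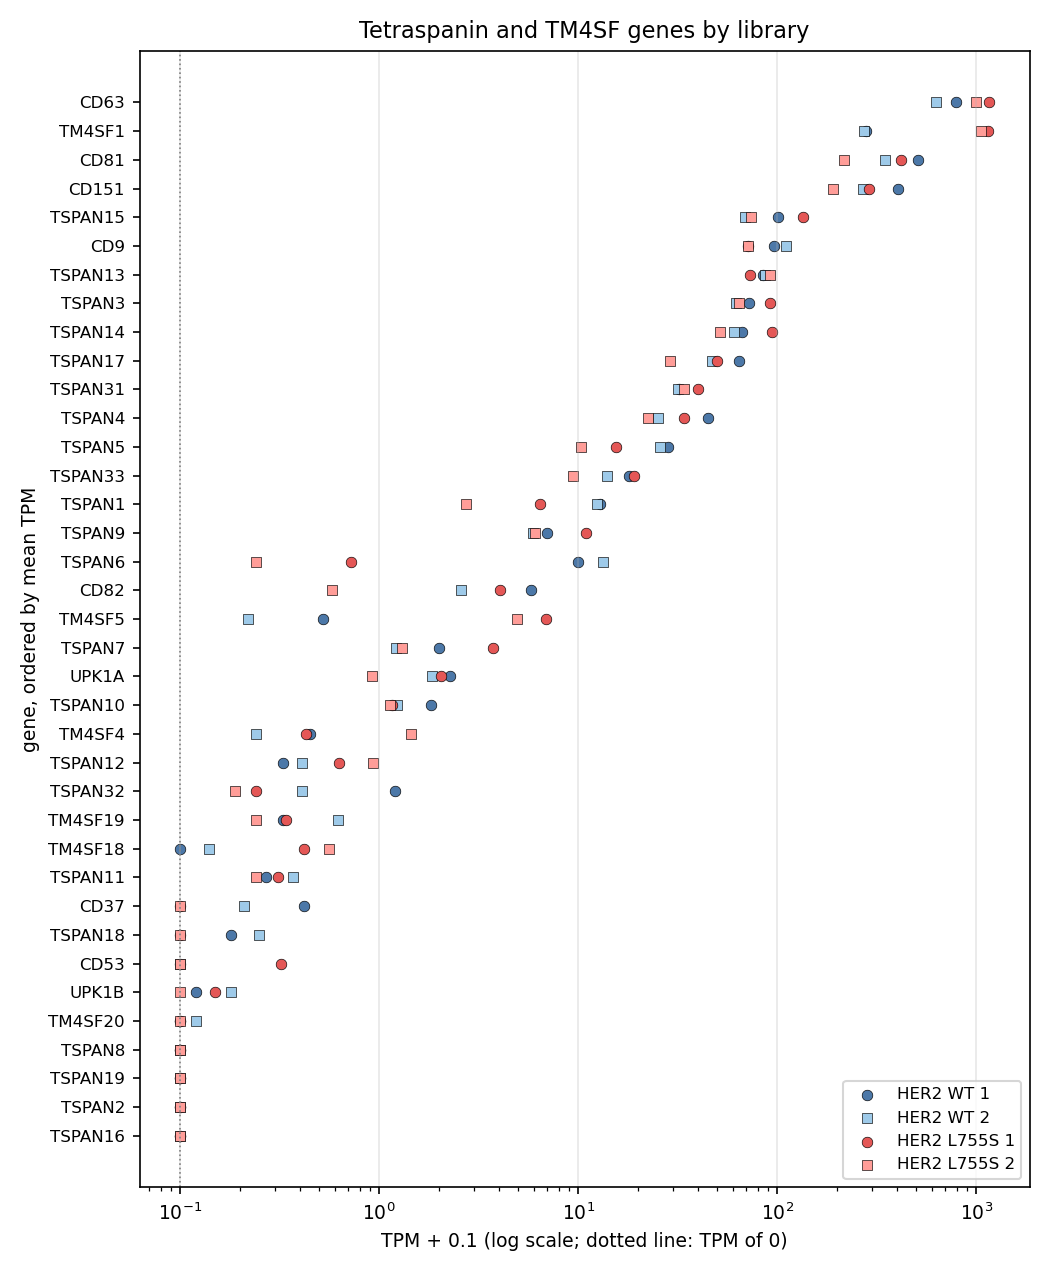
Level of each of the 37 members in each library, as TPM + 0.1 on a log axis, with members ordered by mean TPM. CD63 and TM4SF1 lie at the top, and the libraries of the lines lie far apart for TM4SF1, TM4SF5 and TSPAN6.

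The 37 members together made up 2635 and 2090 TPM in HER2 WT 1 and 2 and 3677 and 2939 TPM in HER2 L755S 1 and 2. Without TM4SF1 these sums were 2356, 1818, 2533 and 1878 TPM, in the same order. TM4SF1 held 10.6% and 13.03% of the members' TPM in the HER2 WT libraries and 31.1% and 36.1% in the HER2 L755S libraries. CD63 held between 30.1% and 33.8% in every library. The 8 most abundant members held 88.3% to 94.0%.

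**Figure D2:**
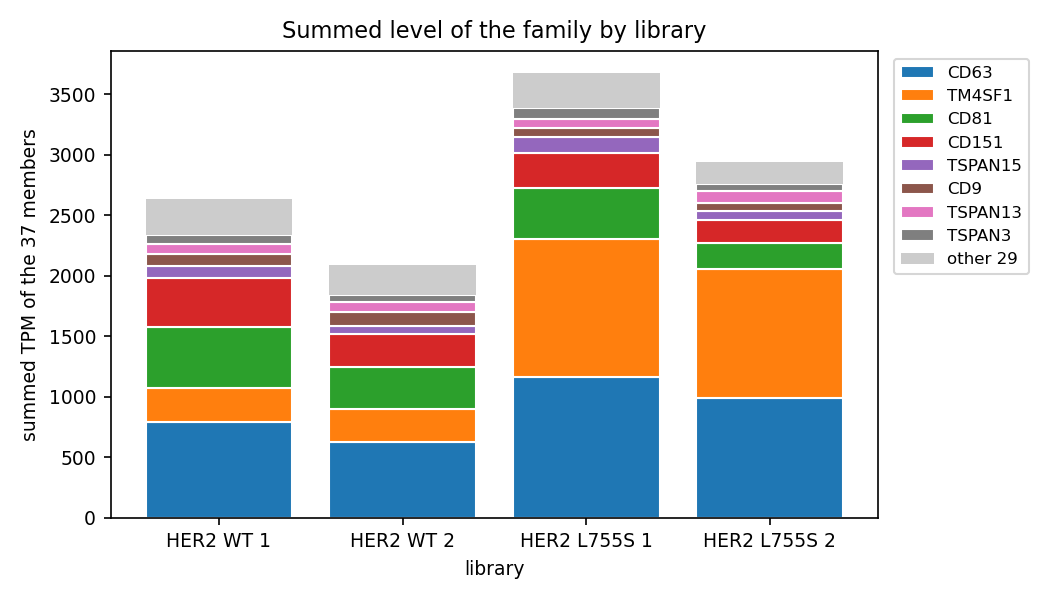
Summed TPM of the 37 members by library, divided into the 8 most abundant members and the other 29. The TM4SF1 segment is larger in both HER2 L755S libraries, and the sum without it spans 1818 to 2533 TPM.

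TM4SF1 and TM4SF5 rose and TSPAN6 fell in HER2 L755S cells, and the other 23 tested members did not pass the threshold. Of all 16538 tested genes, 0.738% were called higher and 0.949% lower (1.69% in either direction) at an adjusted p under 0.05, against 2 and 1 of the 26 tested members. Of the 37 members, 11 had too few counts to test, and 21 of the 26 tested had at least 10 counts in both libraries of both lines. The other 5 reached that level in both libraries of only 1 line, and these were TM4SF4, TM4SF5, TM4SF18 and TSPAN12 in HER2 L755S and TSPAN6 in HER2 WT. The groups did not overlap in CPM (counts relative to the TMM-scaled library total) for 17 tested members (65.4%), against 36.2% of all tested genes. These 17 include all 5 members just named, whose separation the filter on low counts favours, so the shares are not a like comparison. The median log2 fold change, HER2 L755S over HER2 WT, was 0.16 over the tested members and 0.00317 over all tested genes. Within the pairs of same-numbered libraries the members' median was 0.19 in pair 1 and 0.19 in pair 2.

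**Figure D3:**
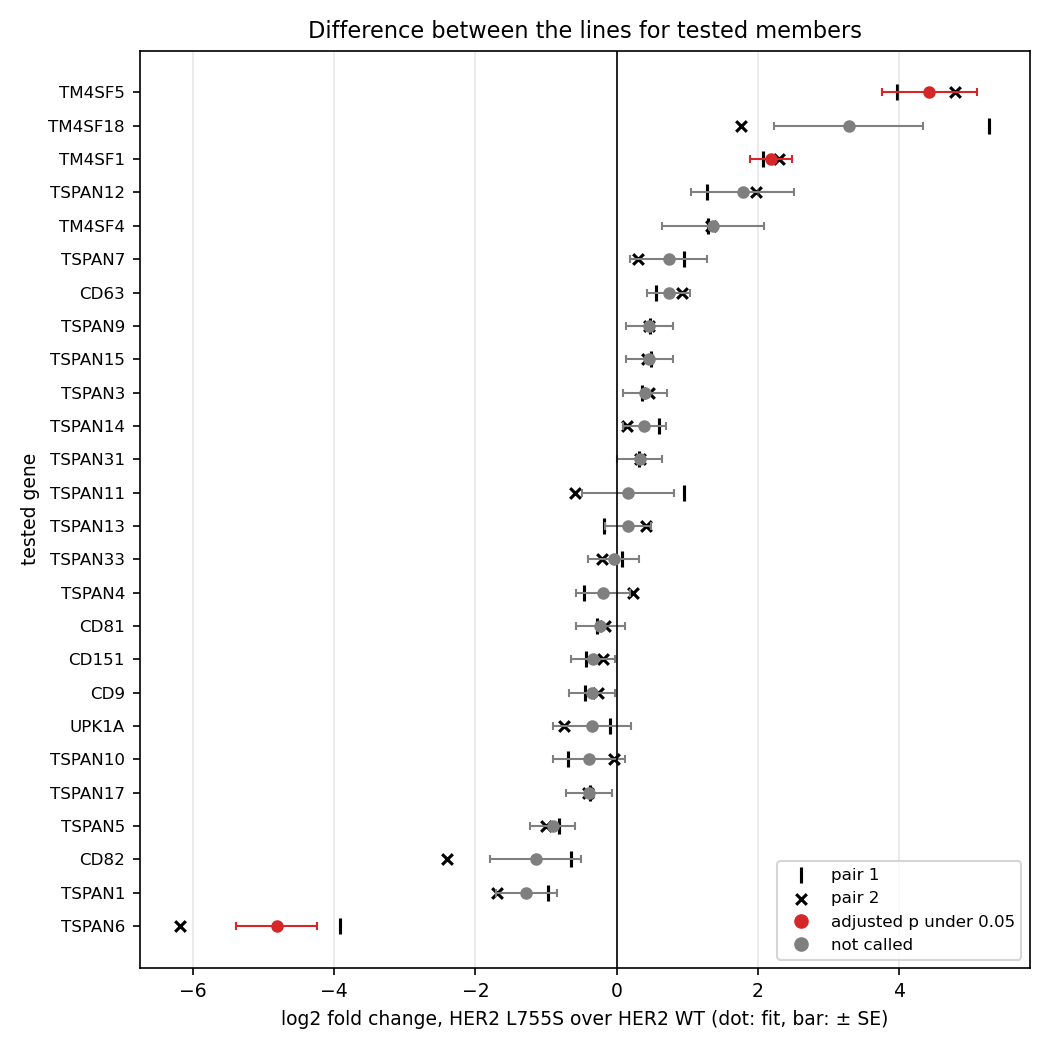
Log2 fold change of HER2 L755S over HER2 WT for the 26 tested members, as the fitted value with its SE, and the difference within pair 1 and pair 2. TM4SF5, TM4SF1 and TSPAN6 are the called members, and TM4SF18, TSPAN6 and CD82 show wide gaps between the pairs.

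TM4SF1 (ENSG00000169908, GRCh38 chromosome 3, 149369022 to 149377865) encodes a tumour-associated surface protein that is also abundant in endothelium. It stood at 329 and 333 CPM under HER2 WT versus 1380 and 1631 CPM under HER2 L755S. Both HER2 L755S libraries thus lay far above both HER2 WT libraries, which were nearly equal. The mean rose from 331 ± 2.91 to 1505 ± 178 CPM (SD, n = 2), a log2 fold change of 2.19 (SE 0.30), or 4.55-fold (edgeR's quasi-likelihood test, Benjamini-Hochberg, BH, adjusted p = 0.0055). The difference was 2.07 in pair 1 and 2.29 in pair 2. Of the endothelium markers, PECAM1 and CDH5 had no count in any library, and EGFL7, the most abundant, stood at 45.8 and 17.5 TPM under HER2 WT versus 52.5 and 31.2 TPM under HER2 L755S. The groups overlap for EGFL7, which was higher by 0.23 in pair 1 and by 1.17 in pair 2 (edgeR, BH-adjusted p = 0.86). CLDN5, the other tested marker, differed by -2.38 on the log2 scale and was not called (adjusted p = 0.15). It was tested only through HER2 WT, which fixes its direction. The part of other cells in the TM4SF1 values was not tested. In such bulk RNA, more cells that express a gene and more RNA per cell cannot be told apart.

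TM4SF5 (ENSG00000142484, chromosome 17, 4771884 to 4783213), another tumour-associated L6 protein, was close to absent from HER2 WT cells. It had 5 and 2 counts under HER2 WT versus 78 and 61 counts under HER2 L755S. All 4 counts are low, and those of the lines do not overlap. Its level rose from 0.112 ± 0.0605 to 2.52 ± 0.206 CPM (SD, n = 2), a log2 fold change of 4.43 (SE 0.67, edgeR, BH-adjusted p = 0.0077). Pair 1 differed by 3.97 and pair 2 by 4.80. On pooled counts, 139 against 7, the ratio was 22.2 (exact 95% interval 10.5 to 56.2, which covers counting error only). TM4SF5 passed the filter on low counts only through HER2 L755S, which fixes the direction of its difference. Even after this rise TM4SF5 stood at 6.80 and 4.85 TPM, far below TM4SF1.

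TSPAN6 (ENSG00000000003, chromosome X, 100627109 to 100639991), a tetraspanin known to dampen innate antiviral signalling, fell. It had 494 and 612 counts under HER2 WT versus 29 and 7 counts under HER2 L755S. Little of it was thus left in either HER2 L755S library, and least in HER2 L755S 2. Its level fell from 18.2 ± 4.11 to 0.632 ± 0.508 CPM (SD, n = 2), a log2 fold change of -4.82 (SE 0.57), 28.2-fold lower (edgeR, BH-adjusted p = 0.0033). The difference was -3.92 in pair 1 and -6.19 in pair 2, where HER2 L755S 2 had only 7 counts. TSPAN6 reached 10 counts in both libraries of HER2 WT only. The filter on low counts thus favours the separation of the lines.

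**Figure D4:**
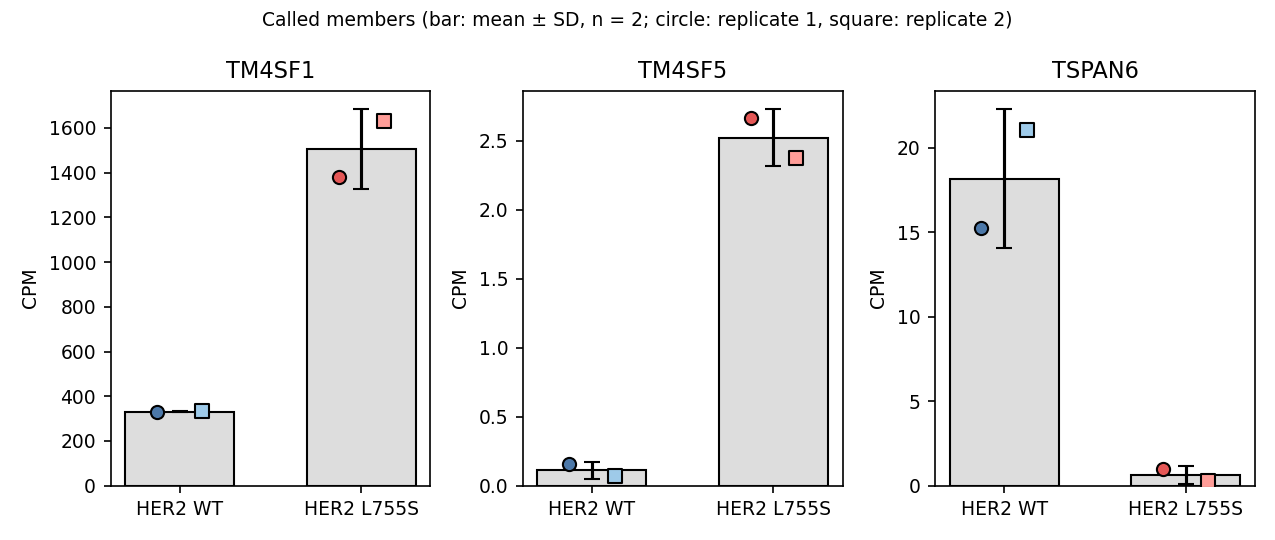
CPM of TM4SF1, TM4SF5 and TSPAN6 in each line, with the mean and SD of 2 libraries as bars and the libraries as points. The points of the lines do not overlap in any of the 3 panels, and the axes differ in scale.

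The starts of these 3 genes are shown because their RNA was called in opposite directions. The windows, from RefSeq on GRCh38.p14, run from 250 bases before to 50 bases after the RefSeq start, written 5′ to 3′ on the gene's strand. They are chr3:149377600-149377899 for TM4SF1 and chrX:100637055-100637354 for TSPAN6, both on the minus strand, and chr17:4771636-4771935 for TM4SF5 on the plus strand. Capitals mark matches, on either strand, to 8 short motifs: TATAAA (bound by TBP), GGGCGG (GC box), TGANTCA (AP-1), CACGTG (E-box), the full palindromic estrogen response element, GGAATG (TEAD), AGATAA (bound by GATA factors) and CCAAT.
TM4SF1: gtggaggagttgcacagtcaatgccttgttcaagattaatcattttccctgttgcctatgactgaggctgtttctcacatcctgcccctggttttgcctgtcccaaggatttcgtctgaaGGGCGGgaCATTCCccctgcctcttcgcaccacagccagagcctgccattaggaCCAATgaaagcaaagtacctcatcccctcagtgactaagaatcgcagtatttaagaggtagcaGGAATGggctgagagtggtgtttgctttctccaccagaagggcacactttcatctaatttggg
TM4SF5: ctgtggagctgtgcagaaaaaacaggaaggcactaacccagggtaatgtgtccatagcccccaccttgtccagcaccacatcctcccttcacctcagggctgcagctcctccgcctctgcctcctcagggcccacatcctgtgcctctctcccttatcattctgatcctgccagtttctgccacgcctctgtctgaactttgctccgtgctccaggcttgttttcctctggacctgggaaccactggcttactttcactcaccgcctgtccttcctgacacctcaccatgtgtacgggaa
TSPAN6: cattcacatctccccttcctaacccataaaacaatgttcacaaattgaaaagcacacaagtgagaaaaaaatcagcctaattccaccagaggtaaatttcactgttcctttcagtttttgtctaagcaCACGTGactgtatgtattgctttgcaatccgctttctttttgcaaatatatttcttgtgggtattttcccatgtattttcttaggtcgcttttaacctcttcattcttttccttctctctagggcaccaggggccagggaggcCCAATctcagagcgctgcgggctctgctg
The TM4SF1 window held a GC box at -130, TEAD matches at -122 (as its reverse complement) and -13, and CCAAT at -76, counted from the start. The TSPAN6 window held an E-box at -122 and CCAAT at 22, and the TM4SF5 window held none of the 8. In 35116 RefSeq windows of this length, GGAATG was found in 14.0%, GGGCGG in 45.0%, CACGTG in 7.26%, CCAAT in 34.6%, TATAAA in 11.5%, TGANTCA in 7.71%, AGATAA in 10.3% and the full estrogen response element in 0.057%. A window was found for 29 of the 37 members, and among them the estrogen response element occurred in 0. GGAATG occurred in 7 of them: TM4SF1, TM4SF18, TSPAN8, TSPAN10, TSPAN12, TSPAN33 and UPK1B. The 3 windows held 4, 5 and 5 CpG dinucleotides, against a median of 14 over all windows. In GENCODE 29, both TM4SF5 transcripts and 3 of 4 TM4SF1 transcripts start inside the printed window, against 2 of 5 for TSPAN6, whose farthest start lies 2887 bases upstream. Such matches describe letters only.

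Of the 6 genes of the L6 family 4 were tested and 2 were called higher, TM4SF1 and TM4SF5, against 0.738% of all tested genes. TM4SF4, TM4SF5 and TM4SF18 reached 10 counts in no HER2 WT library. They passed the filter on low counts only through HER2 L755S, where they are high, which fixes the direction of their differences. The shares are thus not a like comparison. TM4SF4 and TM4SF18 flank TM4SF1 on chromosome 3 and were not called. TM4SF18 had 0 and 3 counts under HER2 WT versus 19 and 10 counts under HER2 L755S. That gives a pooled ratio of 10.8 (exact 95% interval 3.35 to 55.4, counting error only), and a BH-adjusted p of 0.19 in edgeR. RP11-206M11.7, an antisense gene that overlaps TM4SF18, had 10 and 35 counts under HER2 WT versus 212 and 237 counts under HER2 L755S. It was called higher (log2 3.45, SE 0.60, edgeR, BH-adjusted p = 0.016), and without a stated strand setting the reads of the pair cannot be told apart. TM4SF4 had 6 counts in each HER2 WT library and 14 in each HER2 L755S library (log2 1.37, SE 0.72, adjusted p = 0.61). TM4SF19 and TM4SF20 had at most 7 counts in any library.

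Within 0.5 Mb of TM4SF1, 8 protein-coding genes were tested and none was called. The gene with the largest change among them outside the L6 family was GYG1, glycogenin, at 48.8 and 41.4 CPM under HER2 WT versus 131 and 111 CPM under HER2 L755S (log2 1.43, adjusted p = 0.051). GYG1 lies 341 kb away and was called in 8 of 16 alternatives (adjusted p from 7e-05 to 0.22 over all 16). WWTR1, between TM4SF4 and COMMD2, had a log2 fold change of -0.44. Within 0.5 Mb of TM4SF5, 30 genes were tested and none was called, with log2 fold changes from -4.37 to 2.51 and a median of 0.30. The 7 tested genes within 40 kb of TM4SF5 all had positive values, and 5 of them were above 1. PSMB6, a proteasome subunit, stood at 92.4 and 70.9 CPM under HER2 WT versus 197 and 154 CPM under HER2 L755S (log2 1.10, edgeR, BH-adjusted p = 0.13). The chemokine gene CXCL16 and the phospholipase gene PLD2 had values of 1.51 and 1.07 (adjusted p = 0.098 and 0.19). ZMYND15 and GLTPD2 had values of 2.51 and 2.26 on at most 51 counts (adjusted p = 0.11 and 0.23). GLTPD2 was under 10 counts in both HER2 WT libraries, so it was tested only through HER2 L755S, which fixes its direction. ZMYND15 reached 10 counts in both libraries of HER2 L755S only. The groups did not overlap for 6 of the 7, GLTPD2 and ZMYND15 among them, against 36.2% of all tested genes. CXCL16 was called in 4 of 16 alternatives, PSMB6 in 2 of 16, PLD2 in 1 of 16, ZMYND15 in 2 of 15 and GLTPD2 in 0 of 15. Within 0.5 Mb of TSPAN6, 1 of 5 tested genes was called. This was SYTL4, 34.5 kb away, which encodes a synaptotagmin-like protein of secretory granules. It had 169 and 228 counts under HER2 WT versus 17 and 30 counts under HER2 L755S (log2 -2.90, SE 0.52, edgeR, BH-adjusted p = 0.019). All 5 tested genes in this window had negative values, from -2.90 to -0.089 with a median of -0.55, and XKRX had -1.93 on few counts (adjusted p = 0.36). XKRX was under 10 counts in both HER2 L755S libraries, so it was tested only through HER2 WT, which fixes its direction. Protein-coding genes within 5 Mb of TSPAN6 had a median log2 fold change of 0.09 (28 genes of at least 5 CPM on average). The 40 kb distance and the neighbours named here were chosen after the values were seen.

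**Figure D5:**
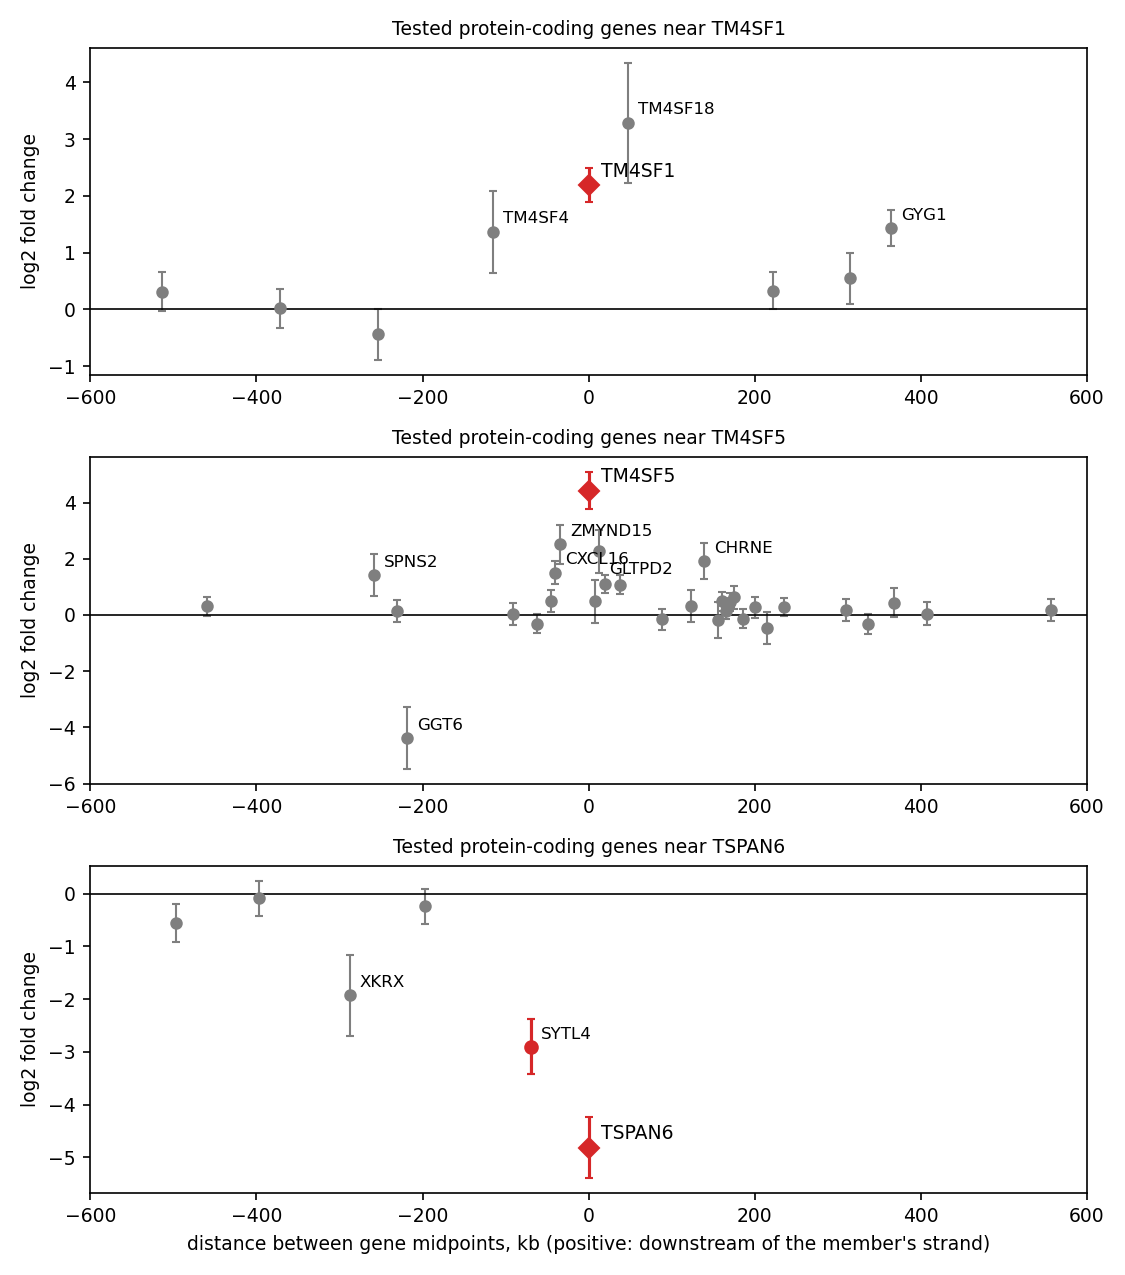
Log2 fold change (HER2 L755S over HER2 WT, ± SE) of tested protein-coding genes within 0.5 Mb of TM4SF1, TM4SF5 and TSPAN6, against the distance between gene midpoints in kb, with called genes in red. SYTL4, beside TSPAN6, is the 1 called neighbour, and the 7 genes within 40 kb of TM4SF5 lie above 0. Of these 7, GLTPD2 was tested only through HER2 L755S, and XKRX, near TSPAN6, was tested only through HER2 WT.

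The vesicle, integrin and fusion tetraspanins CD9, CD63, CD81, CD82 and CD151 were all tested and none was called. CD63 stood at 435 and 333 CPM under HER2 WT versus 643 and 635 CPM under HER2 L755S. Both HER2 L755S libraries were above both HER2 WT libraries, by 0.73 on the log2 scale (SE 0.30, edgeR, BH-adjusted p = 0.38). CD63 was called in 1 of 16 alternatives, the fit with a term for the replicate number (edgeR, adjusted p = 0.025). That fit called 10.5% of all tested genes. CD9, which acts in gamete fusion and cell adhesion, stood at 65.4 and 77.1 CPM under HER2 WT versus 47.9 and 64.2 CPM under HER2 L755S, a narrow separation (log2 -0.35, adjusted p = 0.92). CD81 stood at 480 and 296 CPM under HER2 WT versus 397 and 265 CPM under HER2 L755S, so that the libraries differed more by number than by line (log2 -0.23, adjusted p = 0.98). The sign turned without HER2 WT 1 (0.16) and without HER2 L755S 2 (0.03). CD151 showed the same order, at 381 and 268 CPM against 281 and 235 CPM (log2 -0.33, adjusted p = 0.92). CD82, a tetraspanin known as a metastasis suppressor, stood at 4.14 and 2.96 CPM under HER2 WT versus 2.63 and 0.545 CPM under HER2 L755S. Its log2 fold change was -1.15 (SE 0.64, adjusted p = 0.65), -0.65 in pair 1 and -2.40 in pair 2, and CD82 was called without HER2 L755S 1 (log2 -2.69, adjusted p = 0.017).

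CD81, CD82, CD151 and TSPAN4 lie on chromosome 11, where the median log2 fold change of protein-coding genes was -0.24. Within 5 Mb of CD151 and TSPAN4 the median was -0.47 (55 genes), and within 5 Mb of CD81 it was -0.46 (68 genes). CD81, CD151 and TSPAN4, at -0.23, -0.33 and -0.19, were closer to 0 than those medians. CD82 had a median of 0.0029 around it (33 genes). The part of the chromosome in these values was not tested.

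The 6 partners of ADAM10 (TSPAN5, TSPAN10, TSPAN14, TSPAN15, TSPAN17 and TSPAN33), which guide this surface protease to its substrates, were all tested and none was called. TSPAN5 had the largest difference, from 63.8 and 62.6 CPM under HER2 WT versus 36.1 and 31.4 CPM under HER2 L755S. Both lines were tight and did not overlap (log2 -0.91, SE 0.32, pairs -0.82 and -0.998, edgeR, BH-adjusted p = 0.26). TSPAN5 was called in 1 of 16 alternatives, the fit with a term for the replicate number (edgeR, adjusted p = 0.0039). TSPAN15 went the other way, at 109 and 77.95 CPM under HER2 WT versus 153 and 105 CPM under HER2 L755S, which overlap (log2 0.46, adjusted p = 0.84). The set had 2 positive and 4 negative values and a median of -0.22. ADAM10 itself stood at 53.3 and 83.5 CPM under HER2 WT versus 48.1 and 75.3 CPM under HER2 L755S (log2 -0.15, adjusted p = 1), and its sign turned without HER2 L755S 1 (0.14) and without HER2 WT 2 (0.23).

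Among the other tetraspanins TSPAN1 and TSPAN12 differed most after TSPAN6, and neither was called. TSPAN1 was called in 1 of 16 alternatives, the fit with a term for the replicate number (edgeR, adjusted p = 0.0095). TSPAN1, found mainly in epithelia, stood at 8.37 and 7.71 CPM under HER2 WT versus 4.24 and 2.38 CPM under HER2 L755S (log2 -1.28, SE 0.43, edgeR, BH-adjusted p = 0.22). TSPAN12, a co-receptor for Norrin with FZD4, had 7 and 10 counts under HER2 WT versus 16 and 36 counts under HER2 L755S (log2 1.78, SE 0.72, adjusted p = 0.38). Its counts do not overlap between the lines but are low in all 4. TSPAN3 stood at 79.8 and 65.3 CPM under HER2 WT versus 102 and 89.7 CPM under HER2 L755S (log2 0.40, adjusted p = 0.86). TSPAN13 stood at 121 and 128 CPM under HER2 WT versus 107 and 172 CPM under HER2 L755S, on both sides of HER2 WT (log2 0.16, adjusted p = 1). Its sign turned without HER2 L755S 2 (-0.23) and on the TPM scale (-0.064). The 10 tested members not described singly had log2 fold changes from -0.40 to 0.74, with adjusted p of at least 0.84.

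Members known from other cell types were low. The leukocyte tetraspanins CD37, CD53 and TSPAN32 were not tested, and none exceeded 10 counts. CD37 had 9 and 5 counts in HER2 WT and 0 in both HER2 L755S libraries. It overlaps TEAD2 on the other strand, which had 64 and 58 counts under HER2 WT versus 7 and 9 counts under HER2 L755S (log2 -2.74, edgeR, BH-adjusted p = 0.048). TEAD2 passed the filter on low counts only through HER2 WT, which fixes the direction of its difference. The TEAD2 call was lost in 9 of 16 alternatives, with adjusted p from 0.0014 to 0.14. Of the uroplakins, which coat the surface of urothelium, UPK1A had 53.4 and 40 counts under HER2 WT versus 45 and 20.8 counts under HER2 L755S. It shares its locus with UPK1A-AS1, which had 52.7, 29, 38 and 16.2 counts in the same order. UPK1B had at most 3 counts, and the uroplakin partner UPK3A had none.

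Partners of tetraspanins were read from lists of 69 distinct symbols. Of 61 genes tested in these lists 5 were called, against 1.69% of all tested genes. The lists were chosen with earlier results of these data known, so the shares are not a like comparison. In the immunoglobulin, adhesion and claudin list 1 of 10 tested genes rose and 1 fell. PTGFRN, a direct partner of CD9 and CD81, stood at 5.16 and 8.40 CPM under HER2 WT versus 43.6 and 32.2 CPM under HER2 L755S (log2 2.48, SE 0.39, edgeR, BH-adjusted p = 0.0088). L1CAM, a neural adhesion protein, stood at 93.3 and 65.3 CPM under HER2 WT versus 17.3 and 6.89 CPM under HER2 L755S (log2 -2.71, SE 0.46, adjusted p = 0.014). The lines did not overlap for either gene. CLDN1 had a log2 fold change of -2.26 on few counts and was not called (adjusted p = 0.30). It was tested only through HER2 WT, which fixes its direction.

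In the integrin list 1 of 10 tested genes was called. ITGA4, a subunit of a fibronectin and VCAM1 receptor, had 87 and 136 counts under HER2 WT versus 4 and 5 counts under HER2 L755S (log2 -4.45, SE 0.63, edgeR, BH-adjusted p = 0.0066). It passed the filter on low counts only through HER2 WT, which fixes the direction of its difference. The laminin receptor subunits ITGA6 and ITGB4 had log2 fold changes of -0.99 and -1.61 and the collagen receptor subunit ITGA2 one of 2.40 (adjusted p = 0.19, 0.17 and 0.16). ITGA2 was called in 4 of 15 alternatives (adjusted p from 0.0078 to 0.57), among them without HER2 L755S 1 and without HER2 WT 2 (0.023 and 0.022), and its value was 0.47 on the log2(TPM + 0.5) scale. ITGA6 and ITGB4 were each called in 1 of 16 alternatives. ITGB1, the shared subunit, stood at 259 and 369 CPM under HER2 WT versus 306 and 433 CPM under HER2 L755S (log2 0.24, adjusted p = 0.98), a value that was near 0 without HER2 WT 1 (-0.00023) and without HER2 L755S 2 (-0.039). The list had 3 positive and 7 negative values and a median of -0.34.

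Of ADAM10 and its substrates, 1 of 14 tested genes was called, NOTCH2. This receptor stood at 13.6 and 23.1 CPM under HER2 WT versus 1.64 and 0.351 CPM under HER2 L755S (log2 -4.18, SE 0.63, edgeR, BH-adjusted p = 0.0076). AXL and EGF had log2 fold changes of -1.86 and -1.91 and were not called (adjusted p = 0.064 and 0.14). AXL was called in 5 of 16 alternatives (adjusted p from 0.00076 to 0.24), among them without HER2 WT 1 and without HER2 L755S 1 (0.012 and 0.0059), and EGF in 2 of 16 (from 0.020 to 0.60). The list had 4 positive and 10 negative values and a median of -0.28. Of 20 vesicle genes 1 was called, SDCBP, which encodes syntenin, a scaffold of vesicle formation that binds syndecans and CD63. SDCBP had 131 and 111 counts under HER2 WT versus 8 and 1 counts under HER2 L755S (log2 -4.58, SE 0.71, edgeR, BH-adjusted p = 0.0084). It passed the filter on low counts only through HER2 WT, which fixes the direction of its difference. The other 19 vesicle genes were not called, and SMPD3, at -0.998 (adjusted p = 0.33), was called in 1 of 16 alternatives. The list's median of 0.07 lay near that of all tested genes.

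In the shorter lists no gene was called, including the 1 tested of 3 uroplakin partners. Among the Norrin and Wnt receptor partners of TSPAN12, LRP5 had a log2 fold change of -0.84 (edgeR, BH-adjusted p = 0.46) and lies on chromosome 11. ROM1, a retinal tetraspanin outside the symbol rule, also lies on chromosome 11 and had a log2 fold change of -1.17 (adjusted p = 0.20). LRP5 and ROM1 were each called in 1 of 16 alternatives. The 5 tested palmitoyltransferases, enzymes that attach lipid to tetraspanins, had a median of -0.05, and ZDHHC2 had no count in any library.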

How the data were processed

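The input was 250 ng of RNA, and a TruSeq kit with poly(A) selection was used, per the labels' protocols. Per the file headers, the deposited tables are RSEM output with an expected count, a TPM and an FPKM per gene, made by the authors. FPKM was not used here. STAR, edgeR and GRCh38 are named, with no role, per the submitters' processing notes. The annotation release and strand setting are not given in the sources used here.

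Expected counts were rounded and differences between the lines tested by quasi-likelihood in edgeR 4.0.16 (filterByExpr, TMM factors from 0.937 to 1.04, two-sided, no term for the replicate number) in R 4.3.3, with Benjamini-Hochberg adjustment over 16538 genes at 0.05. Fitted differences are log2 fold changes, and within-pair differences use log2 CPM with a prior count of 0.5. On counts simulated for this comparison over 16538 genes, the test recovered 12% of genes changed 2-fold, 64% at 4-fold, 88% at 8-fold and 98% at 16-fold, with 12 false calls. The simulated libraries were drawn independently, without the deviations that same-numbered libraries share, so these rates may not hold for the data. Positions are from GENCODE 29. Singly described members are TM4SF1, TSPAN6, those called with or without the replicate block, the 8 of highest mean TPM, and those not overlapping with a log2 fold change of at least 1 in size. Of each partner list, up to 4 genes were named, by adjusted p; those with an unadjusted p of 0.05 or more were then left out, a limit added after the values were seen. ADAM10, ITGB1, EGFL7, CLDN5, ESR1, the neighbours of called members, TEAD2 and RP11-206M11.7 were chosen after their values were seen. Members, lists and rules were chosen with earlier results of these data known. Alternatives were DESeq2 1.42.0, limma-voom, limma on log2(TPM + 0.5) and log2(TPM + 0.1), other scaling, filters and thresholds, the replicate block, no mitochondrial genes and each library left out.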

Additional observations from a re-analysis of the deposited data

How the results depend on the processing

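TM4SF1, TM4SF5 and TSPAN6 kept their direction and call in all 16 alternatives. Their log2 fold changes ranged from 2.00 to 2.30, from 3.05 to 5.10 and from -6.04 to -3.82, and their highest adjusted p was 0.013, 0.012 and 0.0044. Members called higher numbered 2 in the main analysis and 3 with the replicate block. Members called lower numbered 3 with the replicate block. Leaving out 1 library gave 2 members called higher, and 1 to 2 called lower. The labels do not say what the replicate number stands for. Deviations of same-numbered libraries from their line means correlated at 0.42 over tested genes. Genes called higher numbered 122, and 266 with DESeq2, 328 with no filter, 725 with the replicate block, 75 with glmTreat, 79 with limma on either TPM scale, 49 at an adjusted p under 0.01 and 160 to 220 with 1 library left out. Genes called lower numbered 157, and 293, 431, 1018, 87 and 49 under DESeq2, no filter, the block, glmTreat and that threshold, and 184 to 328 with 1 library left out. ADAM10 changed sign without HER2 L755S 1 and without HER2 WT 2 (0.139 and 0.232), and ITGB1 without HER2 WT 1 and without HER2 L755S 2 (-0.000232 and -0.0393). CD81 changed sign without HER2 WT 1 (0.16) and without HER2 L755S 2 (0.03). TSPAN13 changed sign without HER2 L755S 2 (-0.23) and on both TPM scales (-0.0637 and -0.064). With 1 library left out, the log2 fold change ran from -0.549 to 0.157 for CD81, from -0.229 to 0.464 for TSPAN13, from -0.511 to 0.232 for ADAM10 and from -0.0393 to 0.531 for ITGB1. The causes were not tested. Of all 16538 tested genes, 10.5% were called with the block, against 1.69% without it, so more calls are found with it in any list. With the block, TSPAN1, TSPAN5 and CD63 were also called (adjusted p = 0.0095, 0.0039 and 0.025, edgeR). Over the partner lists the block called 17 of 61 tested genes, the 5 called without it and 12 more, among them AXL (0.00076), ITGA6 (0.0025), ROM1 (0.0044), LRP5 (0.0055), ITGA2 (0.0088), ITGB4 (0.0127), EGF (0.020) and SMPD3 (0.025). Of the markers it called ESR1 (0.00017), GRHL3 (0.0038) and CLDN5 (0.032), and within 40 kb of TM4SF5 it called PSMB6 (0.00072), CXCL16 (0.00088), PLD2 (0.0025) and ZMYND15 (0.010). Leaving out a library leaves a line with 1 sample, which is assumed to vary like the other line.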

Other observations

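TM4SF1 overlaps the antisense gene TM4SF1-AS1, which had 136 and 132 counts in the HER2 WT libraries and 253 and 182 counts in the HER2 L755S libraries (log2 0.85, SE 0.39, edgeR, BH-adjusted p = 0.48). CD63 overlaps the antisense gene RP11-644F5.11, which had 168 and 183 against 231 and 224 counts and was not called (log2 0.53, adjusted p = 0.83). TSPAN31 shares its locus with CDK4, at a log2 fold change of 0.32 for either gene. The mean transcript length that RSEM assigned to the low member TM4SF4 differed between libraries, at 918 and 2101 bases in HER2 WT 1 and 2 and 2101 and 632 bases in HER2 L755S 1 and 2, so that its TPM and its counts do not order the libraries alike.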
